A study of Homo sapiens with 16 samples.

Results

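The nuclear-encoded subunits of respiratory chain complexes I, III, IV and V were examined in HCT116 cells, a line derived from a human colon cancer. They were taken as the genes whose symbol begins with NDUFA, NDUFB, NDUFC, NDUFS or NDUFV and a digit, with UQCR, with COX4 to COX8, or with ATP5. Pseudogene symbols, antisense symbols and genes on alternate sequences were left out. The rule found 87 of 63653 genes. Of these 87, 75 passed a filter on low values that asked for a mean of at least 1 FPKM (fragments per kilobase of transcript per 1000000 mapped fragments), and they stand among 12840 genes tested. By symbol, 38 of the 75 belong to complex I, 9 to complex III, 11 to complex IV and 17 to complex V, the ATP synthase. Those 17 include ATP5S and ATP5SL, which match by symbol but do not encode subunits of the enzyme. The remaining 12 genes were measured but not tested, and are described with the isoforms.

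Total RNA was sequenced in 4 groups of 2 libraries. The inhibitor group was treated for 72 h with 0.5 µM BIX 01294. This small molecule blocks G9a, an enzyme encoded by EHMT2 that methylates histone H3. The siRNA group was transfected with 10 nM of an siRNA against G9a, using Lipofectamine RNAiMAX, for 72 h. The other groups are a control for the inhibitor and a control for the siRNA, and the labels do not say what these control cells received. No genotype change is stated for any group, and all 4 groups are HCT116. Each library was sequenced in 2 runs, which were averaged. Nothing in the labels says that both libraries of a group were grown apart, and p-values therefore reflect the spread between libraries, which may be technical. The adjusted p-values are from limma, fitted to all 12840 genes and all 4 groups, with the Benjamini-Hochberg adjustment and a threshold of 0.05, and rose and fell are used only of differences that passed it. FPKM are printed after scaling between libraries, and log2 differences are on the log2(FPKM + 1) scale, which understates changes of low genes, with SE for the standard error of the fit.

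The respiratory chain sits in the inner mitochondrial membrane. Complex I oxidises NADH, complex III passes electrons from ubiquinol to cytochrome c, complex IV reduces oxygen, and the ATP synthase uses the resulting proton gradient to make ATP. These complexes are mosaics, since a small core of their subunits is encoded by mitochondrial DNA and the rest by the nuclear genes described here, many of whose promoters are known targets of the factors NRF1, the ETS factor GABP and YY1.

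EHMT2 checked the siRNA labels. It was 15.9 and 17.8 FPKM in the siRNA controls and 4.68 and 4.54 with the siRNA, and it fell by 1.67 ± 0.09 on the log2 scale (SE, adjusted p = 0.000268). It was 24.7 and 21.0 FPKM in the inhibitor controls and 19.7 and 18.9 with the inhibitor, which acts on the enzyme and not on its mRNA, and this difference did not pass the test (log2 difference -0.23, adjusted p = 0.083). The inhibitor control libraries were unlike the other 6 across all genes. Their log2 values correlated with each other at 0.992 and with the other libraries at 0.957 to 0.974, against 0.985 to 0.995 among the other 6. MALAT1, a nuclear noncoding RNA, was 230 and 189 FPKM in them and 55.5 to 78.4 elsewhere, and the summed mitochondrially encoded messages were 13130 and 10870 FPKM in them and 4371 to 6001 elsewhere. Depth, inferred from the deposited confidence intervals, lay between 2.02 and 6.94 times 1000000 fragments per run. Of 9 colon epithelial markers, EPCAM, KRT8, KRT18 and KRT19 were abundant, whereas CDX1, VIL1 and LGALS4 stayed under 1 FPKM in every library. The summed epithelial markers were 749 and 757 FPKM in the inhibitor controls and 633 to 705 in the other 6 libraries. Fibroblasts are the other cell type in the growth protocol, and 7 of 9 fibroblast markers stayed under 1 FPKM in every library, with LUM and FAP listed at 0 and a sum of 1.75 to 3.76. The part of these differences in the results below was not tested. In bulk RNA, fewer cells of a type and less RNA per cell cannot be told apart.

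**Figure D1:**
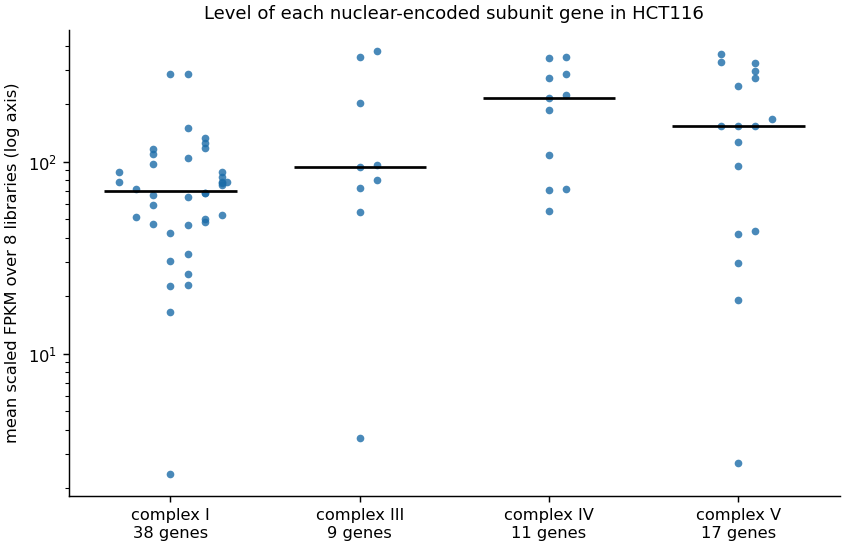
Mean scaled FPKM of each of the 75 subunit genes over the 8 libraries (vertical log axis), by complex. Each point is a gene and each line a median. Complex IV has the highest median, 214 FPKM, and complex I the lowest, 70.3 FPKM, and 3 genes lie below 4 FPKM.

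Levels between genes were compared on the FPKM scale, which is per length. The median subunit gene stood at 70.3 FPKM for complex I, 94.0 for complex III, 214 for complex IV and 153 for complex V, as the plot of levels shows. In complex I the highest gene was NDUFB9, an accessory subunit of the distal membrane arm, at 286 FPKM, with NDUFS5 next at 285. The lowest was a second annotated entry of NDUFB8 (ENSG00000255339) at 2.35 FPKM. In complex III the hinge protein gene UQCRH led with 375 FPKM and the small subunit gene UQCRQ followed with 351. The second entry of UQCR11 (ENSG00000267059) was lowest at 3.65. In complex IV the small membrane subunit gene COX8A was highest at 351 FPKM and COX7A2L lowest at 55.2. In the ATP synthase ATP5A1, which encodes the catalytic head's alpha subunit, led with 362 FPKM, and ATP5S, which matches the rule by symbol but is not a subunit of the enzyme, was lowest at 2.69. Implied fragments per library were 8 or more for the second NDUFB8 entry, 14 or more for ATP5S and the second UQCR11 entry, and 96 or more for the other 72, so counting error is largest for those 3.

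The tissue-restricted isoforms were nearly silent in this line. COX6A2, the heart and muscle form of subunit VIa, and COX7B2 were listed at 0 in all 8 libraries. COX4I2, the form of subunit IV known from lung and hypoxia, reached at most 0.176 FPKM, COX7A1 0.306, COX8C 0.331, COX6B2, known from testis, 0.557, ATP5L2 0.754 and NDUFA4L2, a hypoxia-induced relative of NDUFA4, 0.830. The ubiquitous forms carried nearly all of the signal. Among the COX7A genes, COX7A2 took 78.7% to 80.4% of the summed FPKM and COX7A2L 19.5% to 21.3% over the 8 libraries, with COX7A1 at 0.1% or less. COX7A2L is known for its role in supercomplexes more than as a standard subunit. The 12 genes below the filter also hold a second NDUFA7 entry (ENSG00000167774), the copy ATP5J2LP, and the read-through genes ATP5J2-PTCD1 and NDUFC2-KCTD14. NDUFC2-KCTD14 lay nearest below the filter, with a mean of 0.891 scaled FPKM, and the second NDUFB8 entry nearest above it, with 2.35.

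The c ring of the ATP synthase, the rotor in the membrane, is encoded by 3 genes whose mature protein is the same and whose import peptides differ. Their shares of the summed c-ring FPKM were close to each other in every library. ATP5G1 took 30.9% to 34.6%, ATP5G2 31.2% to 33.2% and ATP5G3 33.6% to 36.0%. The sum was 476 and 486 FPKM in the inhibitor controls, 463 and 481 with the inhibitor, 474 and 451 with the siRNA, and 482 and 468 in the siRNA controls. The inhibitor range overlapped that of its controls, the siRNA range overlapped that of its controls, and both siRNA libraries lay below both inhibitor controls. No c-ring gene passed the test in any comparison. At an unadjusted p under 0.05 there was 1 difference, ATP5G1 between inhibitor and siRNA control (log2 difference -0.13, adjusted p = 0.335). With the inhibitor against its control, the log2 differences were -0.04 for ATP5G1, -0.04 for ATP5G2 and -0.01 for ATP5G3.

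The first comparison asked how the inhibitor libraries differed from their own controls. The subunit genes split into a broad, shallow increase and a few deeper decreases. Of 75 members, 39 rose and 10 fell, against 17.7% of all genes tested that rose and 18.7% that fell. The median log2 difference of the members was 0.19, beside 0.01 over all genes, and 0.119 without a filter on low values, where members below 1 FPKM enter. The increases ran from 0.13 to 0.55 on the log2 scale. The decreases reached -1.13, so the member that changed most fell, although most members that changed rose. Both inhibitor libraries lay above both controls for 47 of 75 members and below both for 17 of 75. Of 12840 genes tested, 4659 lay above both (36.3%) and 4517 below both (35.2%). The summed FPKM of the 75 members was 8440 and 8579 in the inhibitor controls and 9363 and 9631 with the inhibitor, and it was 10060 and 9749 with the siRNA and 9853 and 9489 in the siRNA controls. The inhibitor controls were thus lowest of all 8 libraries.

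**Figure D2:**
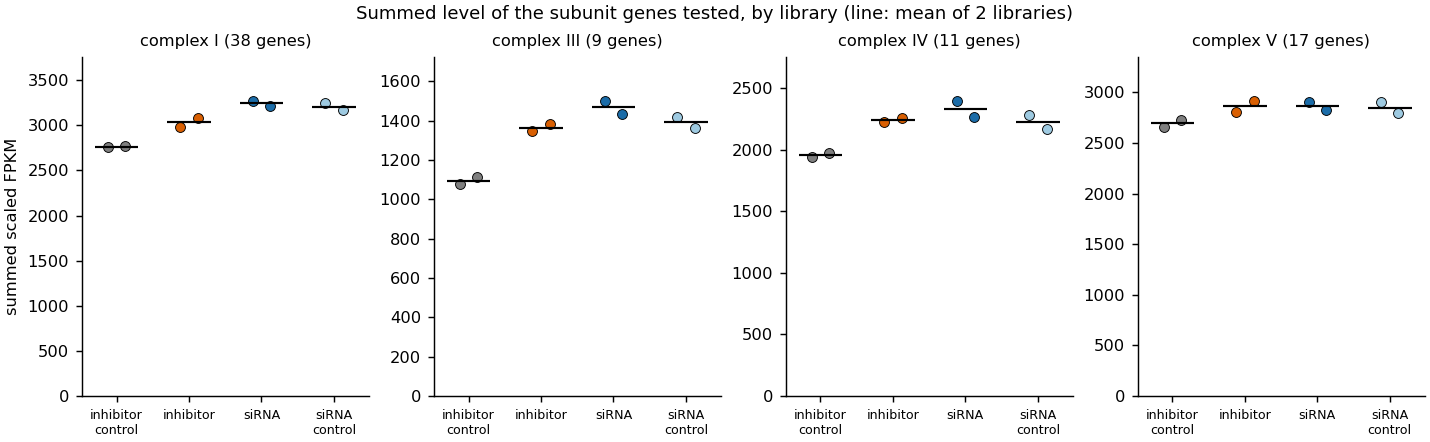
Summed scaled FPKM of the subunit genes tested, by complex (panels), group (horizontal axis) and library (points), with a line at the mean of 2 libraries. The inhibitor controls are lowest in each panel, and for complex III they stand at 1078 and 1112 against 1349 to 1499 in the other 6 libraries.

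The promoters of the 3 members that fell most and the 3 that rose most among those with an entry in the promoter table are shown. These genes moved in opposite directions although all encode subunits of the chain, and only complex I has genes on both sides. Each run is the 250 bases before the transcription start, 5′ to 3′ on the gene's strand, from RefSeq on GRCh38.p14, and capitals mark a motif match on either strand. Searched were GCGCANGCG for NRF1, CCGGAAGT for ETS factors, ATGGCGGC for YY1 and TGACGTCA for CREB-type factors, over the 250 bases before and 50 after the start. The first 3 fell and the last 3 rose.
NDUFA8, chr9:122159780-122160029, minus strand: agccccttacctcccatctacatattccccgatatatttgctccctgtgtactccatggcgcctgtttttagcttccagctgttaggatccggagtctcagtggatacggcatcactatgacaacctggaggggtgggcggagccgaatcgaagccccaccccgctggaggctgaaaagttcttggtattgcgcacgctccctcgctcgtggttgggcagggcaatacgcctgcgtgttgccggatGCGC
NDUFS6, chr5:1801157-1801406, plus strand: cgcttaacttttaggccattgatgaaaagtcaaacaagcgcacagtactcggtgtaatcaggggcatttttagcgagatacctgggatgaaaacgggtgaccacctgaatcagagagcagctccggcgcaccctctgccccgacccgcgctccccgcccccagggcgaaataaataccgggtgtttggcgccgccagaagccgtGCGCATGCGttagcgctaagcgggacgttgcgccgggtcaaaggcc
ATP5J, chr21:25735055-25735304, minus strand: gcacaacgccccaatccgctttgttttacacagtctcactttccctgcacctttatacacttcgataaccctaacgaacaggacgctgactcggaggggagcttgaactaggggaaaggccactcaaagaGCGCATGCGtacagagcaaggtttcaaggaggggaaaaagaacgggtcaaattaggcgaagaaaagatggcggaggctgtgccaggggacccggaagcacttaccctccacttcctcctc
UQCRQ, chr5:132866392-132866641, plus strand: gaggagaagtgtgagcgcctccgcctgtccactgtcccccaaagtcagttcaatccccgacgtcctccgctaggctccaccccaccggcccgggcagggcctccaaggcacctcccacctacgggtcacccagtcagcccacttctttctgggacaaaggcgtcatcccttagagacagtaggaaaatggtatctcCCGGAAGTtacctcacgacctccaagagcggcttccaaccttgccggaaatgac
NDUFS4, chr5:53560389-53560638, plus strand: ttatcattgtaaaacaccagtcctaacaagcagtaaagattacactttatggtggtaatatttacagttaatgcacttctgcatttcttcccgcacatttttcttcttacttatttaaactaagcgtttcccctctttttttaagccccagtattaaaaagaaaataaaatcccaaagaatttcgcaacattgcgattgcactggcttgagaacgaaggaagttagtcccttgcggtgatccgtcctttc
COX8A, chr11:63974370-63974619, plus strand: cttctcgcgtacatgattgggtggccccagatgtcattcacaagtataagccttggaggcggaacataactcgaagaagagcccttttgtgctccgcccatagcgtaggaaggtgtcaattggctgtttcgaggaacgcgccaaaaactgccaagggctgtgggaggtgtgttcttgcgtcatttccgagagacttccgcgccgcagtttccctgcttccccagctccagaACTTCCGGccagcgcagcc
In NDUFA8 the capitals are the first 4 letters of an NRF1 match that runs past the start, the first of 3 matches in its window. NDUFS6 and ATP5J each hold 1 NRF1 match, with its first letter 46 and 120 bases before the start, and NDUFS6 and NDUFS4 each hold a YY1 match just after the start, outside the bases shown. UQCRQ and COX8A each hold 1 ETS match, 54 and 19 bases before the start.

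Over all members tested, 60 of 75 matched the promoter table by symbol, and where a gene has several starts, as ATP5J has, the first listed was used. The NRF1 motif was present in 18 of 60 (30%), against 16.2% of 9326 genes tested with an entry and 8.05% of 27305 genes in the table. The YY1 motif was present in 18.3% of the members, against 6.97% and 3.21%, and the ETS motif in 13.3%, against 9.77% and 4.44%. The CREB-type motif was present in 6.67%, against 3.59% and 1.98%. Among members that rose with the inhibitor, 7 of 33 with an entry held the NRF1 motif and 6 the ETS motif. Among members that fell, 4 of 7 held the NRF1 motif and none the ETS motif. A match is a description of letters and not a site, and no test was made. Among those not matched were NDUFA4, NDUFB5, NDUFB9, NDUFC2, NDUFS5, UQCRB, COX6C, ATP5B, ATP5D, ATP5G3, ATP5J2, ATP5S and 1 entry each of NDUFB8 and UQCR11.

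In complex I, 20 of 38 genes rose with the inhibitor and 4 fell, against 17.7% and 18.7% of all genes. NDUFA8 (ENSG00000119421, chromosome 9, 124894745 to 124922098 in hg19) encodes an accessory subunit on the intermembrane space side. It was 47.7 and 44.2 FPKM in the inhibitor controls and 18.9 and 22.0 with the inhibitor, and it fell by 1.13 ± 0.08 on the log2 scale (SE, adjusted p = 2.89e-05). It was 16.7 and 17.2 with the siRNA and 20.9 and 21.2 in the siRNA controls, so the 2 inhibitor control libraries were above all 6 others. NDUFS6 (chromosome 5, 1801514 to 1816719), a zinc-binding accessory subunit of the NADH-oxidising module, went from 32.2 and 34.3 FPKM to 21.1 and 19.6, and it fell by 0.68 ± 0.07 (adjusted p = 0.000187). With the siRNA NDUFS6 was 15.6 and 16.5 FPKM, and the inhibitor controls again held the 2 highest values. NDUFS3, a core subunit of the quinone module, fell by 0.17 ± 0.05 (adjusted p = 0.0377).

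The complex I genes that rose were spread over its modules. In the NADH-oxidising module 6 of 8 rose and 1 fell, and in the quinone module 3 of 8 rose and 2 fell. In the proximal membrane arm 4 of 9 rose and 1 fell, and in the distal membrane arm 6 of 12 rose and none fell. Among all genes 17.7% rose and 18.7% fell. With 8 to 12 genes in each, the decreases are no result about a module. Of the 12 distal-arm genes, 7 had an unadjusted p under 0.05, a share near the 46% of all genes in either direction. NDUFB5 (chromosome 3, 179322478 to 179345435), an accessory subunit of the distal arm, had the largest increase. It was 47.5 and 55.9 FPKM in the inhibitor controls and 74.8 and 76.6 with the inhibitor, a log2 difference of 0.55 ± 0.11 (adjusted p = 0.0041). NDUFS4, an accessory subunit whose loss is a known cause of Leigh syndrome, was 36.4 and 39.5 FPKM in the controls and 54.1 and 54.4 with the inhibitor, a log2 difference of 0.51 ± 0.06 (adjusted p = 0.000404). NDUFB3, NDUFA5, NDUFB6 and NDUFA12 rose by 0.44, 0.44, 0.42 and 0.41. For each of these 6 genes both inhibitor libraries lay above both controls. The NADH-binding core subunit gene NDUFV1 rose by 0.19 (adjusted p = 0.0174) and the iron-sulfur subunit genes NDUFV2 and NDUFS1 by 0.32 and 0.31. The core quinone-module genes NDUFS7 and NDUFS8, at log2 differences of 0.09 and 0.05, did not pass the test.

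In complex III, 5 of 9 genes rose and none passed the test downward, where the lowest value was -0.18 for UQCRC1, a core protein gene (adjusted p = 0.122). At an unadjusted p under 0.05 there were the same number, 5 of 9, near the 46% of all genes in either direction. At the adjusted threshold, 17.7% of all genes rose and 18.7% fell. UQCRQ (chromosome 5, 132202252 to 132203723) was 238 and 253 FPKM in the inhibitor controls and 366 and 348 with the inhibitor, a log2 difference of 0.54 ± 0.05 (adjusted p = 0.000171). UQCRH rose by 0.36 and UQCRB, a quinone-binding subunit gene, by 0.35. UQCRFS1, which encodes the Rieske iron-sulfur protein, rose by 0.27 and UQCR10 by 0.24. The second core protein gene, UQCRC2, did not pass the test at 0.11. By library the summed complex III level was 1078 and 1112 FPKM in the inhibitor controls and 1349 and 1381 with the inhibitor.

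In complex IV, each of the 11 genes passed the test, with 9 higher and 2 lower. Among all genes 17.7% rose and 18.7% fell, so the count of decreases is near that of all genes. The 2 that fell were those of the subunits IV and Va. COX4I1 (chromosome 16, 85832239 to 85840650), the ubiquitous form of regulatory subunit IV, was 345 and 355 FPKM in the inhibitor controls and 232 and 256 with the inhibitor, and it fell by 0.52 ± 0.06 (adjusted p = 0.000269). COX5A (chromosome 15, 75212132 to 75230509) was 94.7 and 103 FPKM in the controls and 62.8 and 66.2 with the inhibitor, and it fell by 0.61 ± 0.07 (adjusted p = 0.000361). The other subunits rose. COX6C was 204 and 221 FPKM in the controls and 300 and 309 with the inhibitor, a log2 difference of 0.52 ± 0.07 (adjusted p = 0.000653). COX8A (chromosome 11, 63742079 to 63744015) was 279 and 267 FPKM in the controls and 386 and 379 with the inhibitor, a log2 difference of 0.48 ± 0.06 (adjusted p = 0.00037). COX5B, which binds zinc on the matrix side, rose by 0.43. The remaining increases lay between 0.19 for COX7C and 0.39 for COX7A2L. NDUFA4, named as a complex I gene and now known as a subunit of complex IV, is counted above with complex I by its symbol and rose by 0.33 (adjusted p = 0.00475).

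In the ATP synthase, 5 of 17 genes rose and 4 fell, counts near the 17.7% and 18.7% of all genes. They are no result about the enzyme as a group. The median of -0.04 was below that of the other complexes, beside 0.01 over all genes. The peripheral stalk, the stator that holds the catalytic head still, split evenly. ATP5J (chromosome 21, 27088815 to 27107984), which encodes coupling factor 6, was 61.4 and 59.8 FPKM in the inhibitor controls and 36.4 and 38.6 with the inhibitor, and it fell by 0.68 ± 0.06 (adjusted p = 0.00011). ATP5O, which encodes the oligomycin sensitivity protein, fell by 0.15 ± 0.05 (adjusted p = 0.034). ATP5F1 and ATP5H, which encode stalk subunits b and d, each rose by 0.44 (adjusted p = 0.00058 and 0.00039). ATP5H was 191 and 194 FPKM in the controls and 256 and 269 with the inhibitor. In the catalytic head and central stalk, ATP5A1, ATP5C1 and ATP5E rose by 0.33, 0.35 and 0.36, while ATP5D fell by 0.35 ± 0.11 (adjusted p = 0.0337) and ATP5B, the beta subunit gene, did not pass the test at -0.09. Among the other membrane subunits ATP5J2 fell by 0.21 ± 0.06 (adjusted p = 0.0297).

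The 4 smallest decreases depended on single libraries. Without inhibitor replicate 1 or without inhibitor replicate 2, 6 members were called lower instead of 10. ATP5D, ATP5J2, NDUFS3 and ATP5O then had adjusted p-values of 0.1 to 0.169. Without inhibitor control replicate 1, ATP5D and ATP5O had 0.173 and 0.179, and without inhibitor control replicate 2, ATP5J2 and NDUFS3 had 0.189 and 0.204. Over all 19 alternatives the adjusted p-values of these 4 genes ranged from 0.00183 to 0.29. The other 6 decreases passed the test in all 19 alternatives, and so did 11 of the 12 named increases, the exception being NDUFB5 without a filter on low values (adjusted p = 0.0542, range over the alternatives 0.00133 to 0.0542). Without scaling between libraries 21 members rose and 6 fell.

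**Figure D3:**
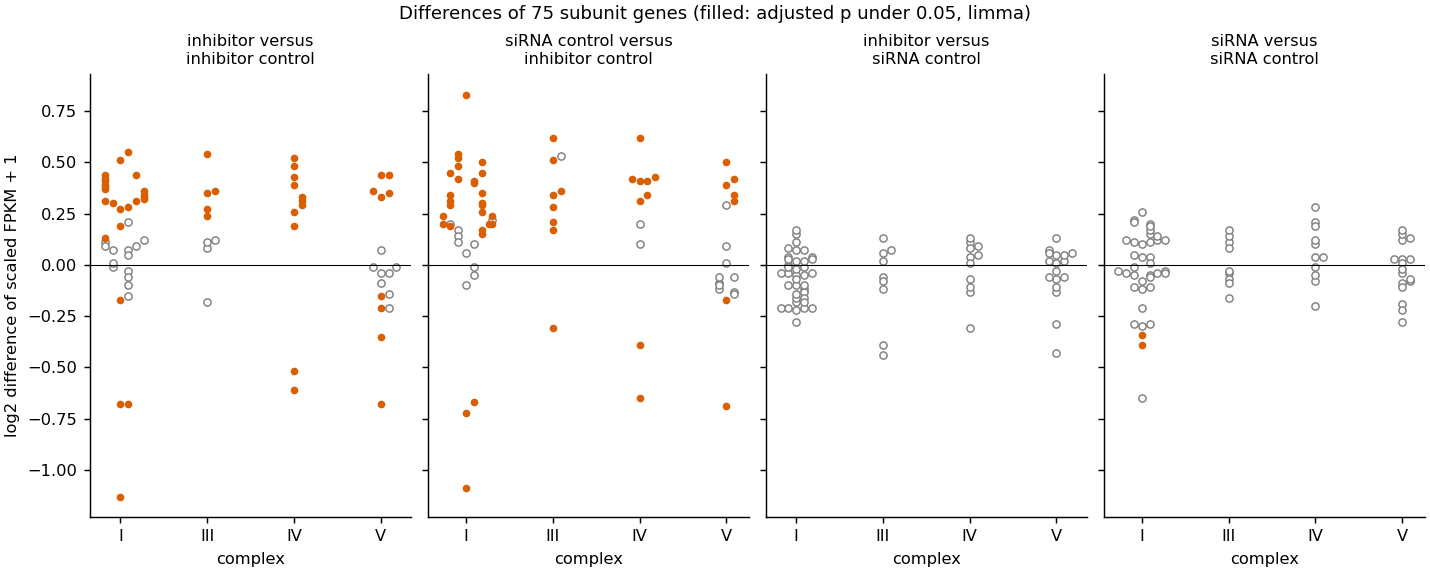
Log2 differences of the 75 subunit genes in 4 comparisons (panels) by complex (horizontal axis). Filled points passed the test (limma, adjusted p under 0.05) and open points did not. The panels against the inhibitor control hold 49 and 52 filled points, those against the siRNA control 0 and 2.

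The inhibitor controls, which set the baseline of that comparison, were then set against the other control group. With 44 members higher in the siRNA controls and 8 lower, the 2 control groups differed in 52 members, where the inhibitor comparison had 49. Over all genes 19.2% were higher and 19.0% lower, and the median of the members was 0.24 beside 0.01. This comparison shares the inhibitor controls with the first, so their likeness is built in and is no second result. NDUFA8 was -1.09 ± 0.08 in the siRNA controls against the inhibitor controls (adjusted p = 3.53e-05), ATP5J -0.69, NDUFS6 -0.67, COX5A -0.65, COX4I1 -0.39, UQCRC1 -0.31 and ATP5B -0.17. NDUFB5 was higher by 0.83 ± 0.11 (adjusted p = 0.000497), with 91.5 and 92.8 FPKM in the siRNA controls. COX7B and UQCRQ were each higher by 0.62, NDUFA4 by 0.54, NDUFA6 by 0.52, UQCR11 (ENSG00000127540) by 0.51, ATP5F1 and NDUFV2 by 0.50, NDUFS4 by 0.48, NDUFB6 and NDUFB3 by 0.45 and COX8A by 0.43. The calls of 2 genes depended on single libraries. UQCRC1 had adjusted p = 0.1 without inhibitor control replicate 2 and 0.0745 without siRNA control replicate 2 (range over its alternatives 0.00588 to 0.107). ATP5B had 0.0782 without inhibitor control replicate 1 and 0.0578 without siRNA control replicate 2 (range 0.00397 to 0.0782).

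Scaling mattered for this comparison. With FPKM as deposited the median of all genes moved from 0.007 to -0.108 here and from -0.006 to 0.099 between inhibitor and siRNA control, and 8 members were called higher and 7 lower, a share of higher calls of 53.3% in place of 84.6%. Relative to the shifted median of -0.108, the members' median of 0.109 still lay above it. The 2 inhibitor control libraries lay below all 6 other libraries for 44 of 75 members (58.7%) and above all 6 for 10 (13.3%), while over all genes tested each share was 25.8%.

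No member passed the limma test between the inhibitor libraries and the siRNA controls. Of 75, 0 were called higher and 0 lower, with a smallest adjusted p of 0.196, and over all genes 0.0312% were higher and 0.00779% lower. At an unadjusted p under 0.05 there were 14 members, all with values below 0, which is 18.7% of the members against 12.4% of all genes. Both inhibitor libraries lay below both siRNA controls for 33 of 75 members and above both for 8 of 75. Of all genes tested, 24.4% lay below and 21.5% above. The median of the members was -0.04, and with FPKM as deposited it turned to 0.084, where that of all genes was 0.099. The largest differences were -0.44 for the second UQCR11 entry, -0.43 for ATP5S and -0.39 for the first UQCR11 entry. The second UQCR11 entry and ATP5S have means of only 3.65 and 2.69 FPKM, where counting error is large. The UQCR11 entries also overlap each other. NDUFA8 stood at -0.04, NDUFS6 at -0.01, ATP5J at 0.01, COX5A at 0.04 and COX8A at 0.05, each with an SE of 0.08 or less. Other well-measured members lay further from 0. Among the 14, NDUFB5 stood at -0.28 ± 0.11, NDUFA4 at -0.21 ± 0.07 and NDUFB10 at -0.21 ± 0.05, and none of these passed the test. Leaving the inhibitor controls out of the fit gave 0 and 0 members as well. The siRNA controls are not the inhibitor's own controls, so treatment and kind of control cannot be told apart here. This comparison shares its siRNA controls with the siRNA comparison and with that between the controls.

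**Figure D4:**
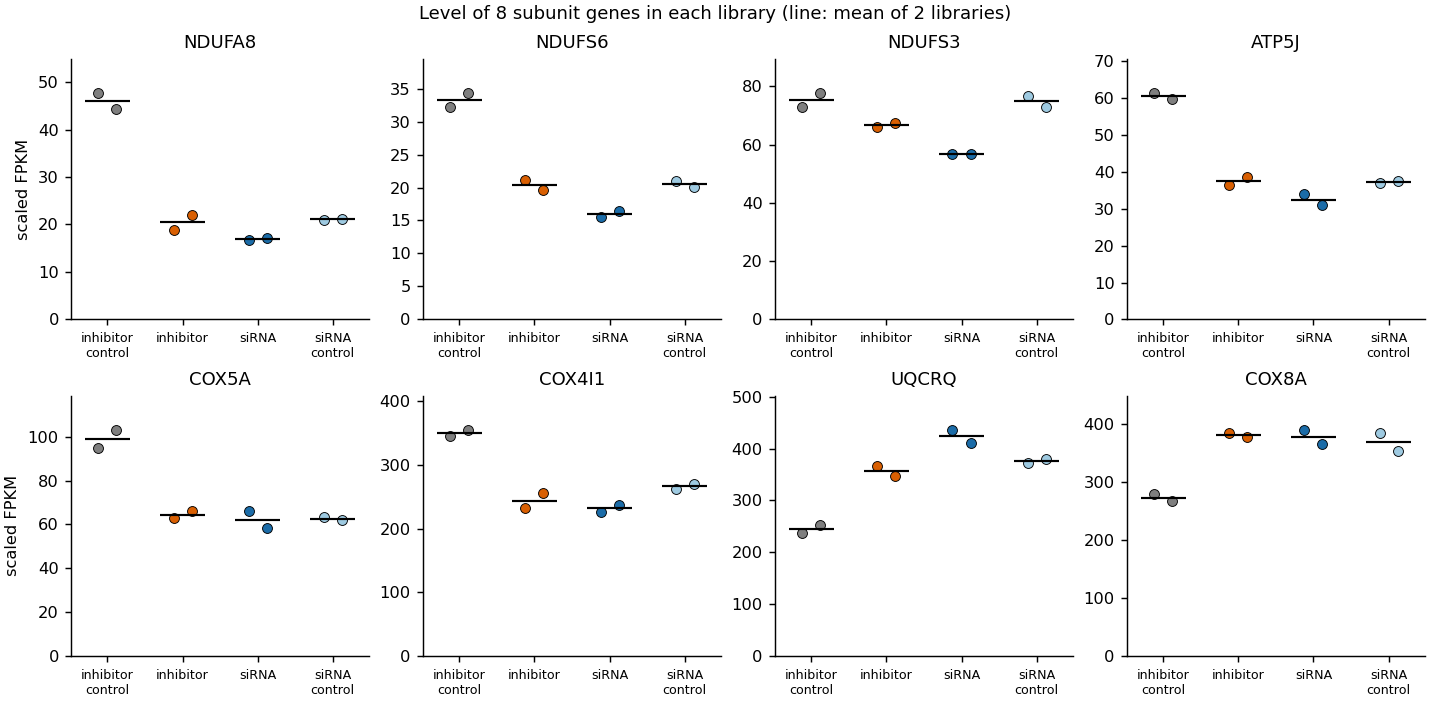
Scaled FPKM of 8 subunit genes in each library (points) by group, with a line at the mean of 2 libraries and vertical axes from 0. NDUFA8, NDUFS6, ATP5J, COX5A and COX4I1 are highest in the inhibitor controls and UQCRQ and COX8A lowest there, while NDUFS3 is lowest with the siRNA.

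The siRNA comparison asked what G9a knockdown did to the subunit genes, and 2 of 75 members fell and none rose. Over all genes 1.32% fell and 0.802% rose. With only 2 calls, the members' counts are near these shares and are no result about the subunit genes as a group. The members' median of -0.01 equalled that of all genes. At an unadjusted p under 0.05 there were 16 members with values above 0 and 12 below, 37.3% of the members against 20.8% of all genes. NDUFS3 (chromosome 11, 47586888 to 47606114) was 76.9 and 72.8 FPKM in the siRNA controls and 56.9 and 56.8 with the siRNA, the lowest values of the 8 libraries, and it fell by 0.39 ± 0.05 (adjusted p = 0.0208). NDUFS6 was 20.9 and 20.03 FPKM in the controls and 15.6 and 16.5 with the siRNA, and it fell by 0.34 ± 0.07 (adjusted p = 0.0475). Both encode complex I subunits, NDUFS3 in the quinone module and NDUFS6 in the NADH-oxidising module. In both genes the siRNA libraries lay below both controls.

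Neither call was firm. NDUFS3 lost it without siRNA replicate 1 (adjusted p = 0.108), without siRNA replicate 2 (0.0675) and without siRNA control replicate 2 (0.093), with a range of 0.00976 to 0.109 over its 20 alternatives. NDUFS6 lost it when any of the 8 libraries was left out (adjusted p = 0.0656 to 0.212), with a range of 0.0292 to 0.43. With the inhibitor controls left out of the fit, chosen after seeing that they stand apart, NDUFS3 kept its call (adjusted p = 0.03) and NDUFS6 did not (0.0704). Under quantile normalization 1 member was higher and 1 lower, a share of higher calls of 50% in place of 0%. NDUFS3 shares its locus with PTPMT1, KBTBD4 and CELF1, and no source used here says whether counting used the strand.

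Other members came close to the threshold with the siRNA in either direction. NDUFS7, a core subunit gene with an iron-sulfur cluster, was 34.2 and 35.2 FPKM in the controls and 27.0 and 29.4 with the siRNA, a log2 difference of -0.29 (adjusted p = 0.058). NDUFA5 was 47.6 and 47.9 FPKM in the controls and 56.6 and 55.1 with the siRNA, at 0.22 (adjusted p = 0.0678). COX6C was 288 and 276 FPKM in the controls and 366 and 320 with the siRNA, at 0.28 (adjusted p = 0.0711). NDUFA8 was at -0.29 (adjusted p = 0.0855). The siRNA libraries lay above both controls for 24 of 75 members and below both for 23 of 75. Of 12840 genes tested, 3058 lay above both (23.8%) and 3324 below both (25.9%).

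Whether the inhibitor and siRNA effects differed was tested as the difference of the differences. The inhibitor effect was the higher for 19 of 75 members and the lower for 4, against 5.14% and 6.67% of all genes, and the members' median was 0.19 beside 0 over all genes. NDUFA8 differed most, at -0.84 ± 0.11 (adjusted p = 0.00359), where the inhibitor effect was -1.13 and the siRNA effect -0.29. COX5A followed at -0.60 ± 0.10 (adjusted p = 0.00889), with effects of -0.61 and -0.01, then ATP5J at -0.48 and COX4I1 at -0.32. In the other direction NDUFB5 was at 0.61 ± 0.15 (adjusted p = 0.0328), with effects of 0.55 and -0.06. NDUFA1 was at 0.47, COX8A at 0.45, COX5B, NDUFS7, COX6A1 and NDUFA6 at 0.38, NDUFB6 and UQCRQ at 0.37, NDUFC2 at 0.35, and NDUFA4 and NDUFB11 at 0.34. These values rest on all 4 groups, the inhibitor controls included. The count of 19 was not stable when 1 library was left out. It was 2 and 4 without inhibitor replicate 2 and 1, 3 and 6 without inhibitor control replicate 1 and 2, 3 without siRNA replicate 2 or siRNA control replicate 1, and 12 and 13 without siRNA replicate 1 and siRNA control replicate 2. The count of 4 lower became 2 without inhibitor replicate 1 and 3 or 4 without each other library. NDUFA8, COX5A and COX8A passed the test in all 8 of these, with adjusted p-values up to 0.0166, 0.0433 and 0.0474. With FPKM as deposited none was higher and 1 lower, so the share of higher calls went from 82.6% to 0%.

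Subunits whose symbols the rule does not match were read beside the members. Of 6 such genes, 4 rose with the inhibitor and none fell, with values of 0.41 for NDUFAB1, the mitochondrial acyl carrier protein, 0.40 for USMG5, a small ATP synthase subunit, 0.29 for cytochrome c (CYCS) and 0.26 for CYC1, the cytochrome of complex III. At an unadjusted p under 0.05 these were again 4 of 6, beside 46% of all genes in either direction. At the adjusted threshold, 17.7% of all genes rose and 18.7% fell. In complex II, which pumps no protons, 3 of 6 rose and 3 fell. SDHC, a membrane anchor, was 22.7 and 16.7 FPKM in the inhibitor controls and 4.33 and 2.96 with the inhibitor, and it fell by 2.16 (adjusted p = 0.000188). SDHA fell by 0.38. The other anchor gene, SDHD, rose by 0.58 and the assembly factor gene SDHAF1 by 0.38. All 11 mitochondrially encoded messages tested fell, with log2 differences from -2.41 for MT-ND3 to -0.25 for MT-CO3, while 39 of the 75 nuclear-encoded members rose between the same libraries. In the siRNA comparison none of these 3 lists held a call, with unadjusted p under 0.05 for 0, 2 and 3 genes. Against the same inhibitor controls, the siRNA controls had 4 of the 6 unmatched subunits higher and none lower. In complex II 3 of 6 were higher and 2 lower there, and all 11 mitochondrially encoded messages were lower. Among all genes 19.2% were higher and 19.0% lower in the siRNA controls. Both comparisons share the inhibitor controls, so their likeness is built in. Between the inhibitor and the siRNA controls no gene of the 3 lists was called, nor was almost any other gene.

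Assembly factors were mixed, and several of their counts were near the shares of all genes, 17.7% higher and 18.7% lower. For complex I, 4 of 13 rose with the inhibitor and 1 fell, with NDUFAF4 at 0.65 (adjusted p = 0.000138), TMEM126B at 0.44 and ACAD9 at -0.37. For complex III, 2 of 6 rose and 2 fell, among them C11orf83 at 0.39, UQCC2 at 0.24, BCS1L at -0.25 and UQCC1 at -0.21. For complex IV, 8 of 22 rose and 3 fell, with COX16 and COA5 at 0.55, SURF1 at -0.82 and COX20 at -0.28. Of 3 ATP synthase assembly factors none was called, and 2 had an unadjusted p under 0.05. SURF1, an early factor of complex IV, was 25.6 and 26.1 FPKM in the inhibitor controls and 13.4 and 15.0 with the inhibitor (adjusted p = 0.000133). In the siRNA comparison SURF1 fell from 13.4 and 13.8 FPKM to 9.87 and 10.7 (log2 difference -0.37, adjusted p = 0.0483). Its siRNA controls thus lay near its inhibitor libraries, and the inhibitor controls above both. ACAD9 fell with the siRNA from 16.8 and 17.5 to 12.8 and 12.6 (log2 difference -0.41, adjusted p = 0.0301). Whether these siRNA calls depend on single libraries was not tested. No other gene of these lists was called with the siRNA.

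Regulators of mitochondrial biogenesis showed small differences. With the inhibitor 3 of 11 tested rose and 2 fell, counts near the 17.7% and 18.7% of all genes and so no result about the regulators as a group. GABPB1, the partner of the ETS factor GABPA, rose by 0.42 (adjusted p = 0.00236) and TFAM, which packages mitochondrial DNA, by 0.40 (adjusted p = 0.0018). PPRC1 fell by 0.32 and the mitochondrial RNA polymerase gene POLRMT by 0.27. NRF1 itself was 7.34 and 8.31 FPKM in the inhibitor controls and 7.88 and 7.26 with the inhibitor, and GABPA 8.12 and 8.75 against 8.06 and 8.94, so neither group was separate from the other. PPARGC1A, a coactivator of oxidative tissues, reached at most 0.00375 FPKM and was not tested. With the siRNA none of the 11 was called, and 1 had an unadjusted p under 0.05.

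Several properties of these genes bear on the values. Of 75 members, 27 overlap another tested gene, among them ATP5J with GABPA, COX4I1 with EMC8, COX6C with VPS13B and ATP5F1 with WDR77, and for these the origin of the fragments is uncertain. NDUFA8, NDUFS6, COX5A, UQCRQ, NDUFB5 and COX8A overlap none. Of 125 pseudogene copies left out by the rule, 14 had a mean of at least 1 FPKM. COX7CP1 stood at 43.2 FPKM, 12.4% of COX7C, and ATP5EP2 at 10.6 FPKM, 24.3% of ATP5E, so reads may be split between these genes and their copies, and their levels are uncertain. The median transcript length of the members was 712 bases, against 1768 bases for protein-coding genes tested. Among 5884 protein-coding genes as short as 90% of the members, 22.8% rose and 19.9% fell with the inhibitor, beside 18.2% and 20.9% of all protein-coding genes. Across 73 members with a known length, length and the log2 difference with the inhibitor had a Pearson correlation of -0.02 and a Spearman correlation of -0.03, over genes that share their libraries. Within groups the members had a median absolute log2 difference between libraries of 0.068 to 0.079, against 0.086 to 0.113 over all genes, which were not matched for level. The members partly moved together between libraries. Replicate 2 was the higher for 73.3% of the members with the inhibitor and 53.3% in its controls. It was the higher for 37.3% with the siRNA and 38.7% in the siRNA controls.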

How the data were processed

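RNA was measured in 16 deposited tables, which are 8 libraries of 2 runs each, 2 libraries per group (n = 2). The values are Cufflinks gene-level FPKM with confidence bounds, as deposited by the authors, per the file headers. The submitters' processing notes name STAR 2.3.0e, SAMtools 0.1.19, Cufflinks and hg19, and the kit was TruSeq Stranded Total RNA, per the labels' protocols. No counts were used, and depth was inferred from the confidence bounds.

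From these values, repeated identifiers were summed, runs averaged and libraries scaled by the median of ratios (factors 0.878 to 1.092). Tested genes had a mean of at least 1 FPKM and spanned 300 bases or more, and 8 genes with a failed Cufflinks status in any run were dropped. limma 3.58.1 in R 4.3.3 was fitted to log2(FPKM + 1) with a mean-variance trend (residual degrees of freedom 4, prior 5.04), with two-sided tests and Benjamini-Hochberg adjustment over 12840 genes. The procedure was tested on simulated data. Gene names in the text follow a rule that takes up to 12 called members each way per comparison whose groups do not overlap, the c ring and isoforms, the highest and lowest gene of each complex, and at most 2 genes each way of other lists. Others (the remaining changed subunits of complexes III, IV and V, NDUFV1, NDUFV2, NDUFS1, CYCS, CYC1, and members near the threshold) were chosen after their values were seen. A gene that the rule names is not reported here. The members and lists were chosen with earlier results of these data known. Alternatives covered the pseudocount, filter, scaling, runs, model, replicate block and each library left out. Promoters were read from RefSeq on GRCh38.p14, and hg19 coordinates are those of the files.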

Additional observations from a re-analysis of the deposited data

Results flagged for a closer look

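By limma's test of the difference itself, the inhibitor effect was higher than the siRNA effect for 19 of 75 members and lower for 4. Over all genes the shares were 5.14% and 6.67%. The test includes the inhibitor controls, which stand apart, and with FPKM as deposited the counts were 0 and 1. On the log2 scale the named differences were 0.61 for NDUFB5, 0.47 for NDUFA1, 0.45 for COX8A, 0.38 for COX5B, NDUFS7, COX6A1 and NDUFA6, 0.37 for NDUFB6 and UQCRQ, 0.35 for NDUFC2, 0.34 for NDUFA4 and NDUFB11, -0.84 for NDUFA8, -0.60 for COX5A, -0.48 for ATP5J and -0.32 for COX4I1. When each of the 8 libraries was left out in turn, NDUFA8, COX8A and COX5A passed the test each time, ATP5J missed it once, COX6A1 in 2 and UQCRQ in 3. NDUFB5, NDUFA1, COX5B, NDUFB6 and COX4I1 missed it in 6, NDUFS7, NDUFA6, NDUFC2 and NDUFB11 in 7, and NDUFA4 in all 8. Groups of 2 libraries are too small for a test of single outlying libraries.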

How the results depend on the processing

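None of the 60 differences of named members changed sign under the alternatives run, but the balance of some counts turned. For the siRNA, 0 higher and 2 lower became 2 and 1 without siRNA control replicate 1. For the difference of effects, 19 higher and 4 lower became 0 and 1 with FPKM as deposited or without a filter, 2 and 4 without inhibitor replicate 2, and 3 and 4 without siRNA control replicate 1. With 1 library left out in turn, members higher and lower ranged over 29 to 39 and 6 to 10 for the inhibitor against its control, 0 to 2 and 0 to 1 for the siRNA, 33 to 46 and 6 to 9 between the controls, 0 and 0 for the inhibitor against the siRNA control, and 2 to 13 and 2 to 4 for the difference of effects. With FPKM as deposited, the inhibitor comparison gave 21 and 6, the siRNA gave 0 lower, and the controls gave 8 higher. With the first run alone, the inhibitor gave 6 lower and the difference of effects 4 and 1. With the second run alone, the inhibitor gave 6 lower, the siRNA 0 lower and the difference of effects 5 higher. Without a filter the siRNA gave 0 lower. For the siRNA, pseudocount 5 gave 1 lower, a mean of at least 5 FPKM gave 2 higher, quantile normalization 1 and 1, a fit of the compared groups alone 0 lower, and a fit without the inhibitor controls, chosen after seeing the data, 1 lower. Where a setting uses fewer libraries or runs, or tests more genes, its construction differs in power, and otherwise the cause was not tested.

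The labels do not say whether replicate numbers pair the libraries. Differences between replicates correlated between groups at -0.098 to 0.048 over all genes, which shows no shared replicate effect but cannot settle how libraries were prepared. With the replicate block, the siRNA comparison gave 1 lower and the difference of effects 7 higher, and the inhibitor comparison 38 and 8. Depth limits 3 members, which have 8 to 14 implied fragments in their shallowest library.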
